A study of Homo sapiens with 2 samples.

Results

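The SR proteins, the hnRNP proteins and the factors that work with them decide which exons a cell keeps in its mRNA, and 58 of their genes were examined among 13017 genes with an FPKM value (fragments, scaled by gene length and by library size). They were taken by name: every listed gene whose symbol starts with SRSF or HNRNP, together with 24 named genes, namely TRA2A and TRA2B, the PTB genes PTBP1, PTBP2 and PTBP3 with RAVER1, RBFOX2, ESRP1, ESRP2, MBNL1, MBNL2, CELF1 and QKI, the kinase genes SRPK1, SRPK2, CLK1, CLK2, CLK3 and CLK4, and SRRM1, SRRM2, SON, PCBP1 and PCBP2. The rule uses names only. RNA sequencing compared 468 cells, a human breast cancer line of epithelioid shape kept in L15 medium with serum, in 2 libraries. One came from cells transfected with a Smart Silencer against the antisense RNA THAP7-AS1 and the other from cells given the negative control si-NC, both sampled at 48 h. The labels name the silencer as the treatment of both samples, so the groups follow the genotype label. The RNA THAP7-AS1 is not analysed here, so the extent of its knockdown is not given. Each group is 1 library: the differences describe these libraries, without replicates and without a test. Where a pair of values is given, the knockdown library comes first unless the sentence says otherwise.

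SR proteins carry RNA recognition motifs and a tail rich in arginine and serine. On exons they recruit the spliceosome, and SRPK kinases in the cytoplasm and CLK kinases in the nucleus phosphorylate that tail. Many hnRNP proteins bind exons or introns and often oppose exon inclusion, and PTB proteins do so at pyrimidine-rich stretches, with RAVER1 as a partner. SR and hnRNP genes commonly adjust their own output by splicing in exons that send the transcript to nonsense-mediated decay.

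The cells carried the markers of an epithelial line in both libraries. EPCAM was at 232 FPKM after knockdown and 224 in the control, and KRT19 at 1106 and 1057. Of the 6 epithelial markers, 5 were higher in the knockdown library, and CDH1 was lower, at 12.4 against 17.1 FPKM. Of 11 markers of immune, endothelial and stromal cells, 5 were listed, PDGFRB and ACTA2 at 0.031 FPKM or less and CD14 highest at 10.3 and 9.50, with a sum over the list of 12.4 and 11.8. The summed FPKM was 213442 and 213888. The depth, estimated from the smallest steps of the values, was near 11100000 and 10900000 fragments.

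SRSF4, RAVER1 and HNRNPA1L2 stood well apart between the libraries, the first higher and the others lower in the knockdown library. Besides the lack of replicates, such values are limited by whether a fragment can be placed on 1 gene only. The first 90 coding bases of SRSF4 and of its close relative SRSF6 are given here because they show a pair that differs at many bases. They run 5′ to 3′ from the start codon, in the principal transcripts of GENCODE release 29 (build GRCh38), and capitals mark the bases that differ between them.
SRSF4: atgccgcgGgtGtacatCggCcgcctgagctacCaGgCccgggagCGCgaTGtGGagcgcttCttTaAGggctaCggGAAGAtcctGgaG
SRSF6: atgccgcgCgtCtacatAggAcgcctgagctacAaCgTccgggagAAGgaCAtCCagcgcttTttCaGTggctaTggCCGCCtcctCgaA

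The pair differs at 26 of these 90 bases. Over the whole principal transcript, 0% of the runs of 50 bases in SRSF4 also occur in transcripts of other genes. HNRNPA1L2 is an intronless near-copy of HNRNPA1, and 58.5% of its runs occur in transcripts of other genes, with 47.6% in HNRNPA1 itself. RAVER1 lies between, with 50.9% shared in all and 46.5% shared with AC011511.4, a gene model on the same strand whose exons cover 1693 of the 4981 exonic bases of RAVER1. AC011511.4 is not analysed here, and how the authors' software divided fragments between it and RAVER1 was not tested.

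For the count of genes that differ, the ratio of each gene was taken as log2 of knockdown FPKM + 1 over control FPKM + 1, which makes the folds of weakly expressed genes smaller than those of the FPKM themselves. A mean of 1 FPKM or more was required, which left 57 of the 58 genes and 10925 genes in all. QKI, an RNA-binding regulator of splicing in glia and muscle, was below that level at 0.657 and 0.592 FPKM. At least 2-fold apart were 3 of the 57 (5.26%), against 1.27% of all genes. One of the 3, HNRNPA1L2, passed the required mean only through its level in the control library, so among the kept genes it had to be lower, and without it the count is 2 of 56. In the higher direction this was 1 gene (0.604% of all genes), and in the lower direction 2 genes (0.668% of all genes). The same 3 genes were also the only ones at least 1.5-fold apart, where 5.45% of all genes passed (2.98% higher and 2.46% lower), so at 1.5-fold the share of the regulators is near the background. At least 1.2-fold apart, a limit added after the values were seen, were 9 higher and 8 lower genes, 29.8% against 25.9% of all genes (14.6% higher and 11.3% lower), again near the background. The 8 lower genes include HNRNPA1L2 and also SRSF12, at 0.821 and 1.28 FPKM. SRSF12 likewise passed the required mean only through the control library.

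**Figure D1:**
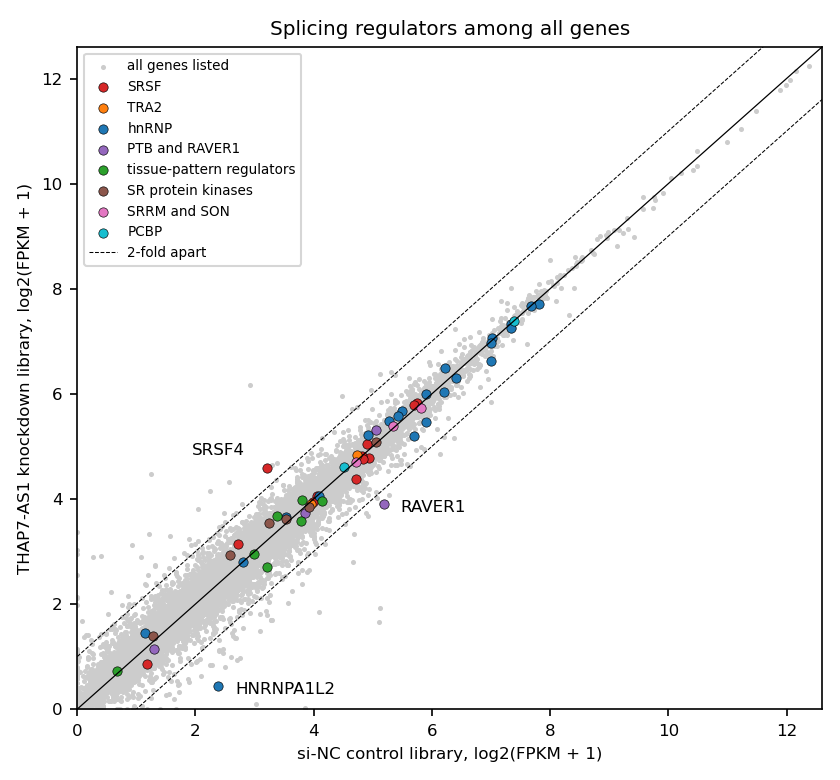
Level of each gene in the control library (x axis) against the knockdown library (y axis), both as log2(FPKM + 1), with 1 point per gene. Grey points are all 13017 genes, coloured points the 58 splicing regulators by family, the solid line equality and the dashed lines a 2-fold difference; SRSF4, RAVER1 and HNRNPA1L2 lie outside the dashed lines and the other coloured points inside.

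Beyond these 3, the group moved little. The median log2 ratio of the 57 genes was -0.0061, against 0.015 for all genes, with 27 above and 30 below 0. The 54 others ran from -0.51 to 0.43, a largest difference of 1.43-fold. Of the 57, 39 lay within 1 spread of 0, where the spread is a robust SD of the ratios, scaled from their median absolute deviation, over all genes at a similar level. That spread measures how far genes scatter between these 2 libraries and is no replicate error. Because the spread is set by all genes, most of them lie within it by construction. The share over all genes was not counted, so the 39 do not set the regulators apart. The 58 genes together took 1.18% of all FPKM after knockdown and 1.21% in the control.

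Among the SR proteins, 1 member was at least 1.5-fold apart. SRSF4, an SR protein with a long arginine and serine tail, was at 8.20 FPKM in the control library and 23.1 in the knockdown library. Its log2 ratio was 1.39, a 2.62-fold difference on the FPKM + 1 scale and 2.81-fold without the added 1. It ranked 24 from the top of 10925 genes. At the estimated depth it rested on about 214 fragments in the control library and 613 in the knockdown library, and the error of its ratio from counting alone would be 0.11. In exons on its strand it shares only 169 of 8893 bases, with a small RNA model. In the control library SRSF4 held 2.86% of the FPKM of the 12 SRSF genes and was the tenth in order. In the knockdown library it held 7.62% and lay above SRSF7, SRSF5 and SRSF10.

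No other SRSF gene was near it. SRSF1, a general activator of exon inclusion and the most abundant of the family, was at 55.4 and 52.5 FPKM, with a log2 ratio of 0.08. SRSF6 and SRSF5, the nearest relatives of SRSF4, were at 53.9 against 50.6 and 15.5 against 15.7 FPKM. SRSF4 thus stood at 0.162 of the level of SRSF6 in the control library and 0.428 in the knockdown library, although these levels per length come from different transcripts. SRSF3, the smallest SR protein, was at 31.9 and 28.98 FPKM. SRSF2, which also has roles in transcription, was at 27.3 in both libraries. It shares 1106 of 3017 exonic bases with MFSD11 on the opposite strand, and the strandedness of the libraries is not given in the sources used here.

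The remaining SRSF genes went both ways. SRSF8, named with the next genes after their values were seen, was at 7.82 against 5.55 FPKM, a log2 ratio of 0.43. SRSF7 was lower, at 19.8 against 25.2, a log2 ratio of -0.34. SRSF9, which shares 1729 of 3744 exonic bases with GATC on the opposite strand, was at 26.6 and 29.8, SRSF11 was at 26.2 and 27.5, and SRSF10, which represses splicing when it is dephosphorylated, at 14.3 and 14.8 FPKM. SRSF12 was low, at 0.821 and 1.28 FPKM, a log2 ratio of -0.32, and passed the required mean only through its control level. Without the added 1 it was 1.56-fold lower, and on that scale the error of the log2 ratio from counting was 0.32. The family sum was 302 FPKM against 287, 5.32% higher in the knockdown library, and without SRSF4 it was 0.153% higher. The median ratio of the 12 was -0.0058, with 6 above and 6 below 0. SRSF1 also shares 1890 of 3340 exonic bases with ENSG00000266086, which was at 0.222 FPKM after knockdown and listed at 0 in the control.

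**Figure D2:**
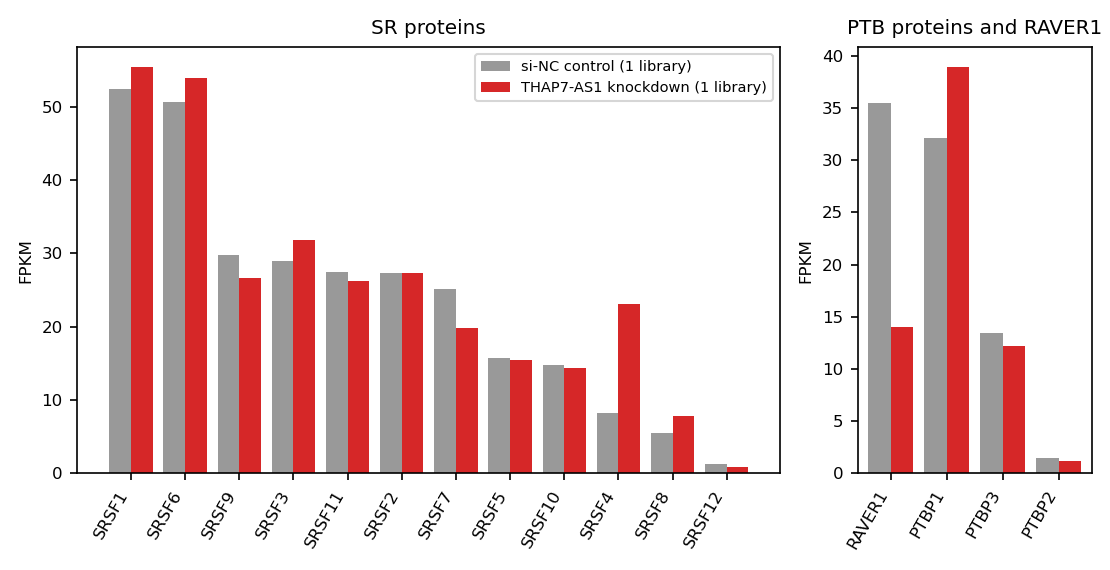
FPKM (y axis, from 0) of each SRSF gene (left) and of the PTB genes and RAVER1 (right), ordered by level in the control library; each bar is 1 library, grey for control and red for knockdown, so there are no error bars. SRSF4 stood at 23.1 against 8.20 FPKM, with SRSF10 beside it at 14.3 against 14.8 and SRSF8 at 7.82 against 5.55, and RAVER1 stood at 14.0 against 35.5 beside PTBP1 at 38.9 against 32.1.

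The TRA2 genes, whose products resemble SR proteins and bind purine-rich exon sequences, differed little. TRA2A was at 27.4 and 25.6 FPKM, with a log2 ratio of 0.10, and TRA2B at 13.9 and 14.6, a ratio of -0.06. TRA2A was the more abundant of the pair in both libraries.

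Among the kinases that phosphorylate SR proteins, the CLK genes all had higher values in the knockdown library, each by a small amount, and are given with ratios after their values were seen. CLK1 was at 10.7 against 8.52 FPKM, CLK4 at 6.64 against 5.01, CLK2 at 11.4 against 10.5 and CLK3 at 1.64 against 1.44. The log2 ratios were 0.30, 0.35, 0.10 and 0.11, and the sum of the 4 was 30.3 against 25.5 FPKM. CLK1 and CLK4 were past 1.2-fold. The ratios of CLK2 and CLK3 lay within their errors from counting alone, 0.13 and 0.36. SRPK1, the most abundant kinase of the group, was at 33.1 and 32.4 FPKM, and SRPK2 at 13.4 and 14.2. Of the 6 kinases, 5 were above 0, with a median of 0.11, and 53.1% of all genes were above 0.

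The large proteins that build nuclear speckles and bridge SR proteins to the spliceosome stayed close together. SRRM2, a scaffold of the speckle, was at 52.3 and 55.0 FPKM, SRRM1 at 40.7 and 39.5 and SON at 25.2 and 25.3. Their log2 ratios were -0.07, 0.04 and -0.0033, and each lay within the spread of genes at its level.

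RAVER1 was the gene that stood out beside the PTB proteins. Its level was 35.5 FPKM in the control library and 14.0 in the knockdown library. The log2 ratio was -1.28, or 2.43-fold lower, and 2.53-fold without the added 1. It ranked 35 from the bottom of 10925 genes. At the estimated depth about 1393 fragments lay behind it in the control library and 560 in the knockdown library, and counting alone would give its ratio an error of 0.07. The shared exons with AC011511.4 described above bear on this value.

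PTBP1, the PTB protein of most tissues and a binding partner of RAVER1, went the other way, at 38.9 against 32.1 FPKM, a log2 ratio of 0.27. RAVER1 was therefore at 1.11 times the level of PTBP1 in the control library and at 0.360 times in the knockdown library. PTBP3 was at 12.2 and 13.5 FPKM, and PTBP2, the form of neurons, at 1.21 and 1.46. Both were slightly lower, with log2 ratios of -0.13 and -0.15. RAVER1 made up 43.0% of the FPKM of these 4 genes in the control library and 21.1% in the knockdown library.

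The 22 hnRNP genes held the most summed FPKM of these families, although the PCBP genes were higher per gene (a median of 94.7 against 55.8 FPKM), and they included the lowest ratio of the 57. HNRNPA1L2 was at 4.23 FPKM in the control library and 0.363 in the knockdown library. The log2 ratio was -1.94, 3.84-fold lower with the added 1 and 11.7-fold without it, and it ranked 6 from the bottom of 10925 genes. These levels correspond to about 64 fragments in the control library and 6 in the knockdown library, with an error of the ratio from counting of 0.64 on the scale without the added 1. Since HNRNPA1L2 is a near-copy of HNRNPA1, by the shares of runs of 50 bases given above, its value is uncertain. HNRNPA1 itself, which antagonises SRSF1 at many exons, was at 133 and 129 FPKM, with a ratio of 0.04. It stood at 30.4 times the level of the copy in the control library. How fragments were divided between them was not tested. Without the copy, the count of genes at least 2-fold lower was 1, RAVER1 alone.

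Most of the abundant hnRNP genes were close to equal in the libraries, and HNRNPUL1 was the exception. HNRNPAB, the most abundant, was at 210 and 224 FPKM and HNRNPF, which binds G-rich runs, at 202 and 203. HNRNPK, which binds C-rich runs, was at 159 and 162 FPKM, HNRNPA2B1 at 152 and 160 and HNRNPUL2 at 124 and 127. Over the 8 genes that averaged 100 FPKM or more, PCBP1 among them, the log2 ratios ran from -0.37 to 0.04. The low end was HNRNPUL1, an RNA-binding relative of HNRNPU, at 97.7 against 127 FPKM, which is 2.68 times the spread of genes at its level. In the control library HNRNPUL1 and HNRNPUL2 stood at the same level, and in the knockdown library HNRNPUL1 was at 0.789 of its relative. Of the runs of 50 bases in HNRNPUL2, 45.2% occur in the readthrough model HNRNPUL2-BSCL2, and how fragments were divided between them was not tested.

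Some hnRNP genes of middle level were lower in the knockdown library, and are named after their values were seen. HNRNPR was at 35.6 against 50.9 FPKM, a log2 ratio of -0.51. HNRNPD, known as AUF1 and a binder of AU-rich mRNA, was at 43.3 against 58.7, a log2 ratio of -0.43. HNRNPDL, its close relative, was at 62.7 against 58.4 FPKM, so the pair that was level in the control library, at a ratio of 1.01, was apart in the knockdown library, at 0.690. These differences are 2.79 times the spread of genes at its level for HNRNPR and 2.49 times for HNRNPD. They stay below 1.5-fold.

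Others, also named after their values were seen, were slightly higher. HNRNPH2 was at 36.0 against 29.1 FPKM, HNRNPM at 88.9 against 73.8 and HNRNPL, a binder of CA repeats, at 43.9 against 37.8. The log2 ratios were 0.30, 0.27 and 0.21. HNRNPH2 shares 362 exonic bases with the readthrough model RPL36A-HNRNPH2, which was at 216 against 272 FPKM. HNRNPL shares 561 of 6821 exonic bases on its strand with ENSG00000268083, which was at 1.58 against 0.297 FPKM. HNRNPC, which binds uridine runs, was at 49.8 and 44.1 FPKM, HNRNPU at 46.7 and 41.8 and HNRNPA0 at 11.5 and 10.5. HNRNPH3 and HNRNPA3 were on the lower side, at 65.0 against 72.6 and 77.8 against 83.6 FPKM. HNRNPH1 at 15.7 and 16.1 and HNRNPLL at 5.99 and 6.02 FPKM were nearly equal. HNRNPUL2-BSCL2, a readthrough model that shares 98.8% of its runs of 50 bases with other genes, was at 1.73 and 1.22. The median of the 22 hnRNP genes was -0.01, with 9 above and 13 below 0, and their sum was 3.37% lower in the knockdown library (1662 against 1720 FPKM).

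**Figure D3:**
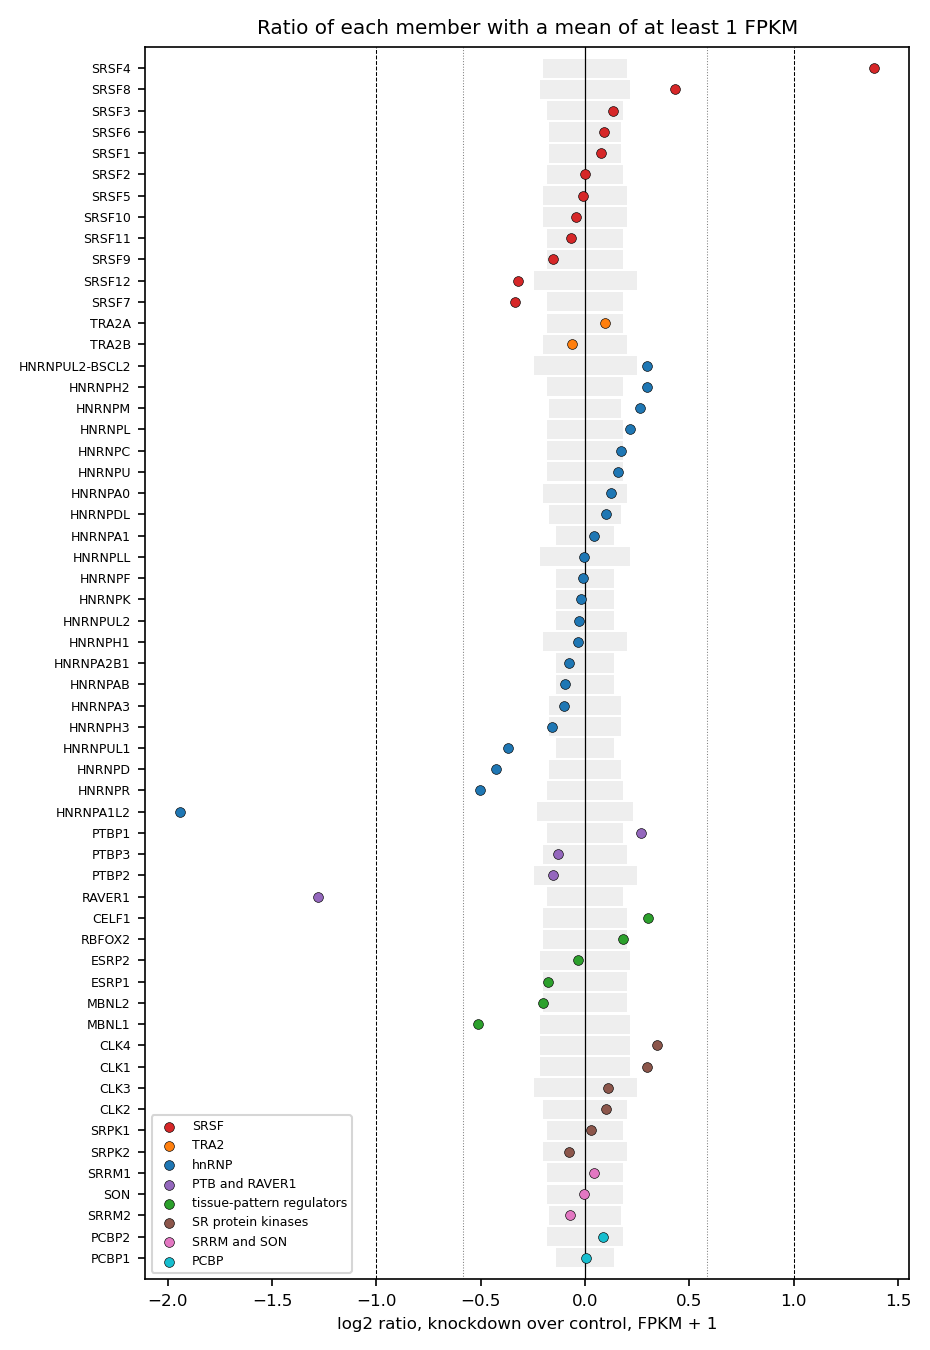
Log2 ratio of knockdown over control (x axis, FPKM + 1 scale) for the 57 genes that averaged 1 FPKM or more, 1 point per gene, coloured and grouped by family. Grey bars reach 1 spread (robust SD of all genes at a similar level) to either side of 0, dotted lines mark 1.5-fold and dashed lines 2-fold. Most genes lie within 1 spread by construction. Here 39 points lie within their bars, and SRSF4, RAVER1 and HNRNPA1L2 lie beyond the dashed lines.

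The PCBP genes, which bind C-rich RNA, were level between the libraries. PCBP1, an intronless gene, was at 167 FPKM in both, and PCBP2 at 23.2 and 21.8. Their log2 ratios were 0.0026 and 0.09, and that of PCBP1 turned below 0 under each of the 4 other scalings, as did that of SRSF2. PCBP1 shares 914 of 1750 exonic bases with PCBP1-AS1 on the opposite strand. Of the runs of 50 bases in PCBP2, 65.7% occur in transcripts of other genes, with 58% in AC023509.1.

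Among the regulators that set tissue patterns of splicing, MBNL1 differed most; it is named, with MBNL2, CELF1 and RBFOX2, after the values were seen. MBNL1, a muscleblind protein, was at 5.52 against 8.30 FPKM, a log2 ratio of -0.51, and its relative MBNL2 at 11.0 against 12.8, a ratio of -0.20. CELF1, which opposes muscleblind proteins at exons in muscle, was at 11.8 against 9.36 FPKM, a ratio of 0.30. The difference for MBNL1 was 2.37 times the spread at its level, and it was below 1.5-fold with the added 1. Without the added 1 the fold was 1.503. The ratios of MBNL2 and CELF1 were 0.991 and 1.484 times the spread at their level.

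The regulators of epithelial splicing were present and near equal. ESRP1 was at 14.6 and 16.6 FPKM and ESRP2 at 6.71 and 6.91, with log2 ratios of -0.18 and -0.04. RBFOX2, which binds GCAUG in introns, was at 14.8 and 12.9, a ratio of 0.18. Of the 6 regulators kept, 2 were above and 4 below 0, with a median of -0.11.

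Some features that the names did not fix were common among the genes, though not in every family. In GENCODE release 29 all 12 SRSF genes, both TRA2 genes and all 3 of SRRM1, SRRM2 and SON have at least 1 transcript annotated for nonsense-mediated decay. The share was 83.3% of the SR protein kinases and 63.6% of the hnRNP genes. It was 50% in each of 3 families: the PTB genes with RAVER1, the kept regulators of tissue patterns and the PCBP genes. Of the 57 genes 73.7% have one, against 43.5% of all kept genes, and 71.9% against 57.6% have a transcript with a retained intron. They also have more annotated transcripts, a median of 12 against 8, and a higher level, a median of 26.5 against 6.81 FPKM, and how far these go with the share was not tested. SRSF4 has 8 transcripts, of which 2 are annotated for decay and 4 retain an intron. RAVER1 also has 8, with 2 and 1. The tables give 1 value per gene, so which transcripts lay behind the values of SRSF4 and RAVER1 was not measured. A gene value adds decay and intron-retaining forms to those that encode protein.

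Other genes of splicing and of related processes were set beside these genes, as 160 gene symbols in 9 lists. Of these, NOVA1, NOVA2 and RBFOX1 were not analysed. The lists include nonsense-mediated decay factors and kinases, phosphatases and importers of SR proteins, so the pooled values do not describe the spliceosome alone. MATR3 was listed under separate identifiers, at 9.08 against 9.44 and at 14.1 against 16.5 FPKM, and each is counted. Of the 155 entries kept, 1 was at least 1.5-fold apart, against 5.45% of all genes. This was SNRPD2, an Sm core protein of the spliceosomal snRNPs, at 34.8 against 16.6 FPKM, a log2 ratio of 1.03. The entries had a median level of 24.6 FPKM against 6.81 for all genes, and ratios scattered less at higher levels. The spread was 0.18 at 20 to 50 FPKM and 0.22 at 5 to 10 FPKM. How far the level goes with the low count was not tested. Of the 155, 101 were above 0 (65.2%), with a median of 0.04, against 47.4% of the 57 regulators and 53.1% of all genes. The sum over the lists was 4.26% higher in the knockdown library.

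By list, the Sm and LSm proteins, which form the rings on snRNAs, had 13 of 14 above 0 and a median of 0.10. The U1 snRNP and 5′ splice site factors had 7 of 8 and 0.14, the U2 and branch site factors 11 of 19 and 0.07, and the U5 and tri-snRNP proteins 11 of 15 and 0.05. The PRP19 complex and catalytic factors had 13 of 21 above 0 and a median of 0.04, and the exon junction complex with its peripheral factors 7 of 10 and 0.09. Among U2 factors, U2AF2, the large U2AF subunit that reads the polypyrimidine tract, was at 60.1 against 85.8 FPKM, and U2AF1, its small partner at the AG, at 25.9 against 19.2. Both are named after their values were seen and lay within 1.5-fold.

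The remaining lists held genes on both sides of 0. Other RNA-binding regulators had 24 of 44 entries above 0 (MATR3 counted for each identifier) and a median of 0.0038, with ratios from -0.57 to 0.46. Nonsense-mediated decay factors had 5 of 9 above 0 and a median of 0.0014. Both medians turned below 0 under the 4 other scalings. The other kinases and the importers of SR proteins, listed with the phosphatase genes PPP1CA, PPP1CB and PPP1CC, had 10 of 15 above 0. Their median was 0.05, with ratios from -0.41 to 0.33. The decay factors ran from -0.11 to 0.08, the narrowest range of the 9 lists, and none was at least 1.2-fold apart.

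**Figure D4:**
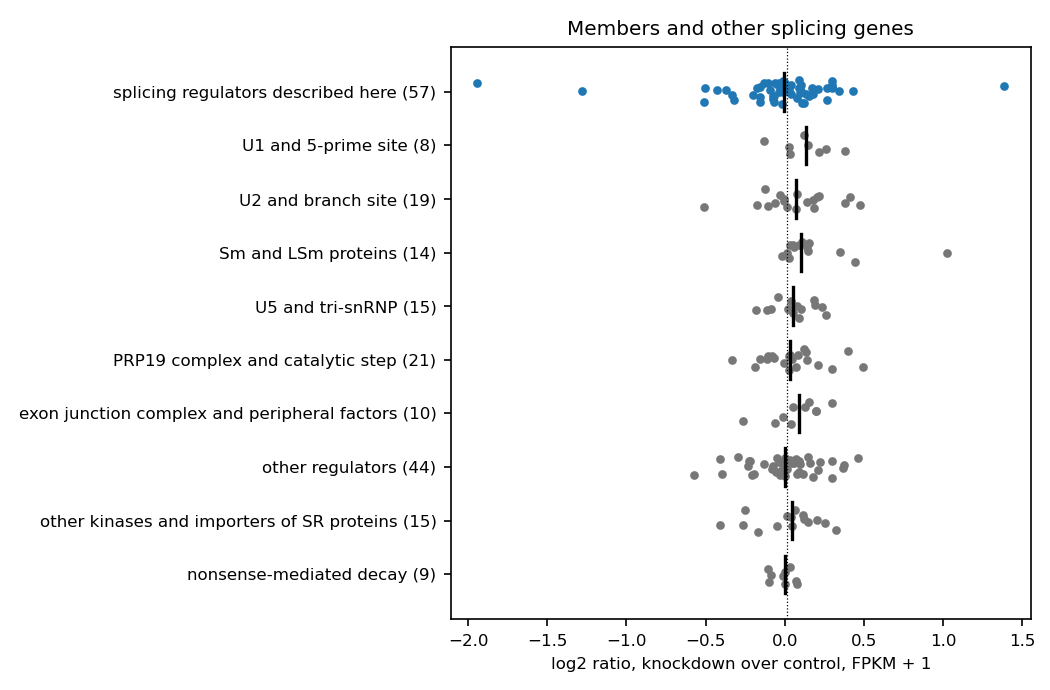
Log2 ratio of knockdown over control (x axis, FPKM + 1 scale) for the 57 splicing regulators (blue) and for 9 lists of other genes of splicing and related processes (grey). Each point is 1 gene that averaged 1 FPKM or more, with MATR3 shown for each identifier, and the number of points is in brackets. Black bars are medians and the dotted line is the median of all genes, 0.015; SNRPD2 is the grey point near 1, and the blue points beyond 1 to either side are SRSF4, RAVER1 and HNRNPA1L2.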

How the data were processed

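Per the file headers, each deposited table holds FPKM per gene for 1 library. The tools listed are HISAT2 2.0.5, StringTie and cutadapt, on build hg19, per the submitters' processing notes. The annotation, strandedness and other versions are not stated there. FPKM divides by length and library fragments, so abundant genes shift others, and overlapping or near-identical genes receive estimated shares.

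Identifiers without version were matched to symbols (12746 of 13017). GENCODE release 29, on another build, was used by identifier for exons, transcript types, lengths and sequences (12933 matched). Log2 ratios used a pseudocount of 1 FPKM, over genes that averaged 1 FPKM or more. With 1 library per group, fold rules (2, 1.5 and 1.2) replaced tests. Depth was estimated from products of FPKM and length between 80 and 100 in single-transcript genes (14 and 10), a window set after viewing the values; fragments per gene used the shortest principal transcript. Errors from it cover counting only, on the scale without the added 1.

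Members and lists were chosen with earlier results of these data known. Named with ratios were genes at least 1.5-fold apart, the most abundant of each family, their relatives and partners, and up to 4 such genes per other list; other genes given with a ratio were chosen after their values were seen. Alternatives changed the pseudocount, filter, scaling, fold and exon sharing. The exon-sharing setting dropped only genes that share exons on the same strand with another analysed gene. RAVER1, whose partner AC011511.4 is not analysed, and HNRNPA1L2 were therefore kept, and that setting could not bear on their values. Ratios were tested on simulated data. Python 3.11.15, numpy 2.4.6, pandas 2.3.3 and matplotlib 3.10.9 were used.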

Additional observations from a re-analysis of the deposited data

How the results depend on the processing

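SRSF4 and RAVER1 kept their side of 2-fold under every pseudocount, filter and scaling tried, with log2 ratios from 1.09 to 1.48 and from -1.34 to -1.09. HNRNPA1L2 ran from -3.23 to -0.78, and SRSF12 moved from -0.32 to -0.58 with a pseudocount of 0.1 FPKM. Of the genes at least 2-fold apart, the 2 lower became 1 with a pseudocount of 5 FPKM, when a mean of 5 FPKM was required and without HNRNPA1L2. The 1 higher gene stayed in each of these settings. At 3-fold the counts became 0 higher and 1 lower. The 2 genes at least 1.5-fold lower became 1 when a mean of 5 FPKM was required and without HNRNPA1L2. The 9 genes at least 1.2-fold higher became 3 with a pseudocount of 5 FPKM. They became 6 under quantile normalization, and 7 under the remaining scalings and without genes that share exons, which the limits set count as unmoved. By construction a larger pseudocount or a stricter filter or fold takes fewer low genes. Among the genes of the other lists, the 0 at least 1.5-fold lower became 1 with a pseudocount of 0.1 FPKM and under each of the 4 other scalings. CIRBP, at 2.15 against 3.69 FPKM, lies at that limit. The remaining 231 summary values and 521 of 526 single ratios moved by no more than the limits set. The limit was a 1.5-fold change for a count and the spread of genes at its level for a single ratio. For a median it was the spread over all kept genes, divided by the square root of the number of genes in the list. No paired analysis was possible because each group has 1 library. Leaving out a library was likewise not run.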
